A study of Mus musculus with 10 samples.

Results

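Dentate granule cells are the excitatory principal neurons of the dentate gyrus, the first relay of the hippocampal circuit. They receive the perforant path from the entorhinal cortex and send mossy fibers to mossy cells of the hilus and to CA3 pyramidal neurons, and new ones are added from a germinal layer in adult life. Here 10 genes known for their enrichment in granule cells were examined by symbol in hippocampal RNA-seq counts, out of 24391 gene names: the transcription factors Prox1 and Rfx3, the synaptic and secretory genes C1ql2 and Stxbp6, the calcium buffer gene Calb1, the junction, scaffold and membrane-signaling genes Dsp, Pdzd2 and Plekha2, and the enzyme genes Tdo2 and Lct. All 10 were measured and all 10 passed the filter on low counts in every fit.

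The study asked which transcripts of the hippocampus change after subarachnoid hemorrhage (SAH), bleeding into the space around the brain. In 4 male C56BL/6J mice (the strain as the study prints it) SAH was induced by perforating the circle of Willis on one side with a filament, and only SAH animals with a drop in cerebral blood flow were kept. In 3 Sham mice the filament was advanced and withdrawn without puncture, and 3 Naive mice had no surgery. All were 10 to 14 weeks old, and whole hippocampi of both sides were sequenced as bulk RNA at day 4, 1 library per mouse. Mice are numbered 1 to 4 (SAH), 5 to 7 (Sham) and 8 to 10 (Naive), and "control" means Sham and Naive mice together (n = 6).

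Each library held 19743388 to 27254655 reads counted to genes, and no pair of libraries within a group was a duplicate. A pair of mice stood apart. SAH 3 was the lowest or the highest of the 10 mice for 26.3% and 24.8% of all tested genes, more than any other mouse. Sham 5 was not unusual over all genes (lowest of the 10 mice for 9.02%), but was the lowest for 6 of the 10 granule markers. The markers' changes without these mice, an alternative chosen after seeing the data, are given beside the full values. Sham 5 was named for its low marker values and SAH 3 had the highest marker median, so leaving out both narrows the difference by construction, and these values are a description and no test. Because the tissue is bulk, fewer cells of a type and less RNA per cell cannot be told apart, and nothing in the counts shows which cells a transcript came from. Outside granule cells, Calb1 is also known from CA1 neurons and interneurons, Prox1 from a class of interneurons, Dsp from epithelia and meninges, and Rfx3 from ciliated cells.

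Promoter sequences are shown as the regulatory context of Prox1, the gene of granule cell identity, and of C1ql2, the marker that passed the test of SAH against control. They are RefSeq sequences of build GRCm38.p6, written 5' to 3' on the gene's strand from 250 bases before to 50 bases after the transcript start. Capitals mark matches to CANNTG, the E-box core read by basic helix-loop-helix factors such as those of the neurogenic lineage; the motif is its own reverse complement, so both strands are covered. Promoters were listed for 8 of the 10 genes, and not for Calb1 and Plekha2.
C1ql2, chr1:120340332-120340631, plus strand: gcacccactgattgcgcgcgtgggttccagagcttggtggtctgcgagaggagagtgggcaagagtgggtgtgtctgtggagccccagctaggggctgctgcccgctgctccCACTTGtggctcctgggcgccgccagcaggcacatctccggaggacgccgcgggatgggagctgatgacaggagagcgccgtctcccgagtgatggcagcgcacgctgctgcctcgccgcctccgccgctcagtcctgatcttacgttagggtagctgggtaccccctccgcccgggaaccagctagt
Prox1, chr1:190170778-190171077, minus strand: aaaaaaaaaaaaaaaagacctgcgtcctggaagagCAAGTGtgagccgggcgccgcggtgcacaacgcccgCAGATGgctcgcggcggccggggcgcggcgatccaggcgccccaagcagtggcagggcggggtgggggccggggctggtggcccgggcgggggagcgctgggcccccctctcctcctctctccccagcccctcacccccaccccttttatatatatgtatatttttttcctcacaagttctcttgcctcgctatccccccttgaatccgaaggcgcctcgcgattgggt
The C1ql2 window held 1 match (CACTTG). The Prox1 window held 2, CAAGTG and CAGATG, and a second listed Prox1 start at chr1:190169466-190169765 had none. CANNTG was found in 72.3% of the 32851 promoters of the same length, and CAGATG or its reverse complement CATCTG in 17.2%, so a match is common. These letters describe the windows and were not tested against the counts.

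Levels were compared between genes as CPM (reads scaled to a common library size) per kilobase of exon. Over the 10 mice the order was Calb1 (44.6 ± 2.50, SD, n = 10), C1ql2 (41.7 ± 7.28), Stxbp6 (30.0 ± 3.24), Prox1 (15.9 ± 2.17), Rfx3 (12.5 ± 0.856), Plekha2 (10.5 ± 2.50), Lct (8.79 ± 1.88), Dsp (5.56 ± 1.56), Tdo2 (4.51 ± 1.17) and Pdzd2 (4.29 ± 0.594). Among neighbors in this order, the ranges over mice did not overlap between Stxbp6 and Prox1. All the other neighbors overlapped, although every mouse had more C1ql2 than Stxbp6 and more Prox1 than Rfx3 per kilobase. The upper level was held by the calcium buffer gene Calb1 and by the synaptic and secretory genes C1ql2 and Stxbp6. Tdo2 rested on 99 to 243 reads per mouse, and each of the other genes on at least 647 reads.

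**Figure D1:**
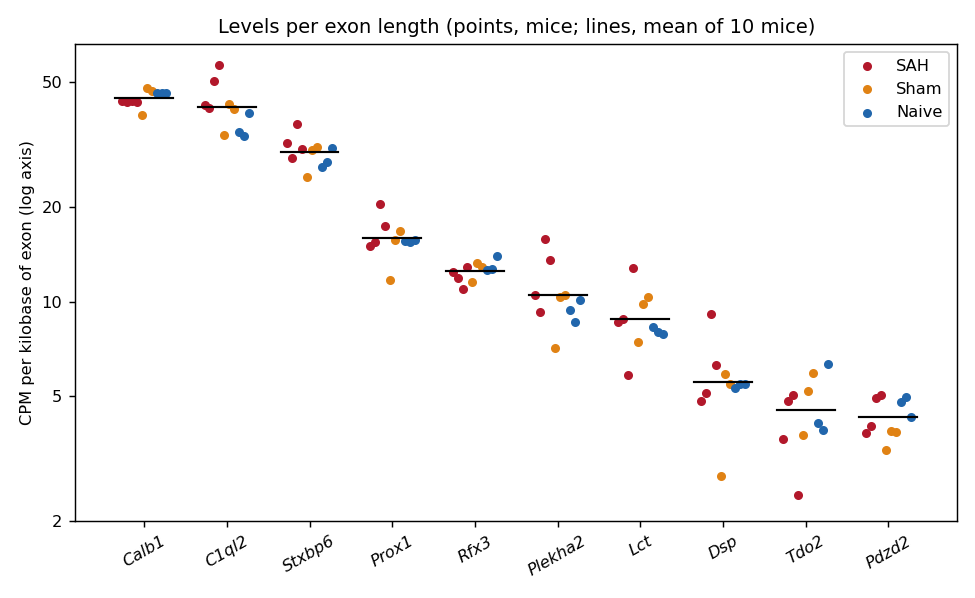
CPM per kilobase of exon (log axis) of each gene in each of the 10 mice, colored by group, with a line at the mean of 10 mice. Calb1, C1ql2 and Stxbp6 lie above the other 7 genes, and only the step from Stxbp6 to Prox1 has ranges that do not overlap.

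The first question was whether the markers differed between SAH and control mice. C1ql2 was 1.27-fold higher after SAH and was the only marker to pass the threshold, an adjusted p under 0.10 in edgeR's quasi-likelihood test with Benjamini-Hochberg adjustment over all 14993 tested genes. That is 1 of 10 markers, where 4.68% of all tested genes passed and 3.13% passed as higher. The other 9 did not pass. DESeq2 on the same counts called 2, C1ql2 (adjusted p = 0.0178) and Plekha2 (0.0794), where it called 6.39% of all genes. On the log2 scale the median change of the 10 genes was 0.13, against -0.0024 over all tested genes, with 7 values above 0 and 3 below. Without SAH 3 and Sham 5 the median was -0.0015, with 5 values above 0 and 5 below, and it was 0.071 without Sham 5 alone, 0.085 without SAH 3 alone and 0.093 without SAH 4 alone. Without both SAH 3 and SAH 4 it was -0.0093, with 5 of 10 values below 0. These 2 mice had the highest marker medians, so leaving them out lowers the change by construction. With all 10 mice, an unadjusted p under 0.05 was found for 3 of the 10 (C1ql2, Plekha2 and Stxbp6), where 17% of all genes had one. In none of the 10 genes did the SAH and control mice separate without overlap, as they did in 5.2% of all genes.

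Of the transcription factors, Prox1 maintains granule cell identity. Its level was 62.1, 64.3, 84.4 and 71.9 CPM in SAH 1 to 4, 48.5, 65.1 and 69.5 in Sham 5 to 7, and 64.3, 64.0 and 64.9 in Naive 8 to 10. SAH 3 and SAH 4 lay above every control mouse, Sham 5 lay far below the rest, and the other 7 mice lay between 62.1 and 69.5. The log2 change was 0.17 (SE 0.098, 95% interval -0.039 to 0.38, adjusted p = 0.401, edgeR), and 0.012 without SAH 3 and Sham 5. Rfx3, a factor that drives genes of cilia, read 116, 111, 103 and 120.4 CPM in the SAH mice, and 108, 119.6 and 130.1 as the lowest, median and highest of the 6 control mice. Its groups overlapped, with a log2 change of -0.089 (SE 0.055, adjusted p = 0.437), -0.078 without SAH 3 and Sham 5, -0.047 without SAH 3 alone and -0.12 without SAH 4.

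C1ql2 encodes a secreted C1q-like protein of mossy fiber synapses. The SAH mice read 84.8, 82.7, 101 and 113 CPM, the Sham mice 67.7, 85.0 and 82.1, and the Naive mice 69.6, 67.5 and 79.9. SAH 3 and SAH 4 were above every control mouse, while SAH 1 and SAH 2 were just under Sham 6, so the groups overlapped. The means were 95.4 ± 14.4 CPM (SD, n = 4) after SAH and 75.3 ± 7.91 (n = 6) in control mice, a log2 change of 0.34 (SE 0.093, 95% interval 0.14 to 0.54, adjusted p = 0.0727, edgeR). The call lay near the threshold and changed when single mice were left out. With each mouse left out in turn, the log2 change stayed between 0.25 and 0.40, and 4 of 10 fits kept the call (without SAH 1, SAH 2, Sham 6 or Sham 7; adjusted p over the 10 fits 0.0363 to 0.219). It was lost without SAH 3 (adjusted p = 0.129), SAH 4 (0.219), Sham 5 (0.143), or any 1 of the 3 Naive mice (0.112 to 0.168). The number called over all genes also moved, from 701 to 308 without SAH 4 and to 361, 427 and 396 without Naive 8, 9 and 10. It rose to 1093 without SAH 2. Without Naive 10 the log2 change of C1ql2 was 0.36, no smaller than with all mice, and the call was still lost. Without both SAH 3 and Sham 5 the log2 change of C1ql2 was 0.28 (adjusted p = 0.219).

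Genes of choroid plexus epithelium, a tissue that lies against the hippocampus, were high in the same SAH mice. All 10 genes of that list, with Ttr as the leading one, were detected in every mouse with none at 0. In SAH against control none was called in edgeR or DESeq2 and 3 had an unadjusted p under 0.05, with a median log2 change of 1.16. Against Naive edgeR called 2 (Ttr and Kcnj13) and all 10 had an unadjusted p under 0.05, with a median of 2.23, and against Sham 0 were called and 0 had such a p, with a median of 0.52. Their summed level was 113, 228, 1262 and 889 CPM in SAH 1 to 4, 224, 65.2 and 854 in Sham 5 to 7, and 54.8 to 76.1 in the Naive mice. Without the 3 mice with the highest sums (SAH 3, SAH 4 and Sham 7), an alternative chosen after seeing the data, the log2 change of C1ql2 was 0.18 (adjusted p = 0.464) and no marker was called. SAH 3 and SAH 4 also had the highest C1ql2 levels of the 10 mice, so leaving them out lowers the SAH mean by construction. Over all genes that smaller fit called 330, against 701 with all mice. These values are a description and no test. The part of this tissue in the markers' values was not tested.

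Stxbp6 encodes amisyn, which binds the SNARE proteins of vesicle fusion. It read 139, 124, 159 and 132 CPM in the SAH mice and 108, 126 and 134 as the lowest, median and highest control. SAH 1 and SAH 3 were above every control, and the log2 change was 0.16 (SE 0.074, 95% interval 0.0023 to 0.32, adjusted p = 0.287), which fell to 0.052 without SAH 3 and Sham 5. Calb1, which encodes the calcium buffer calbindin, was the steadiest of the 10 after SAH. Its 4 SAH mice read 124, 124, 125 and 124 CPM, a coefficient of variation of 0.481%, which is less than the 1.88% that read counting alone gives. The control mice read 113, 137 and 135 (Sham) and 132, 132 and 132 (Naive). The SAH mice lay inside the control range, between Sham 5 and all the others. The log2 change was -0.068 with a 95% interval of -0.17 to 0.037 (adjusted p = 0.506), and -0.11 without SAH 3 and Sham 5.

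Dsp encodes desmoplakin of desmosomes and had the widest spread between mice among the well-counted genes. It read 46.1, 49.0, 87.5 and 60.3 CPM after SAH, 26.7, 56.4 and 52.5 in Sham mice and 50.8, 52.3 and 52.3 in Naive mice. SAH 3 was the highest and Sham 5 the lowest. The log2 change of 0.32 (SE 0.196, adjusted p = 0.433) became -0.03 without those 2 mice. Plekha2, whose product binds phosphoinositides at the membrane, had the largest log2 change of the list, 0.39 (SE 0.138, 95% interval 0.097 to 0.69), but did not pass (adjusted p = 0.162). It read 52.5, 46.3, 79.2 and 67.4 CPM after SAH against 35.5, 48.6 and 52.4 as the lowest, median and highest control. SAH 1, 3 and 4 were above every control, SAH 1 only barely (52.5 against 52.4 CPM), and without SAH 3 and Sham 5 the log2 change was 0.18 (adjusted p = 0.505). Pdzd2, a scaffold with several PDZ domains, read 51.3, 53.7, 66.2 and 67.6 CPM after SAH and 45.3, 54.7 and 66.5 as the lowest, median and highest control, a log2 change of 0.09 (SE 0.108, adjusted p = 0.703), which turned to -0.015 without SAH 3 and Sham 5.

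The enzyme genes varied without a shared direction. Tdo2 encodes tryptophan dioxygenase of the kynurenine pathway. It read 5.95, 7.87, 8.24 and 3.96 CPM after SAH and 6.15, 7.59 and 10.3 as the lowest, median and highest control. SAH 4 was the lowest of all mice, and the log2 change of -0.29 (SE 0.203, adjusted p = 0.485) had an interval from -0.73 to 0.14, and was -0.11 without SAH 4 and -0.49 without SAH 3 and Sham 5. Lct, which encodes lactase and is a transcript marker of these neurons in mice, read 53.1, 54.2, 36.0 and 78.8 CPM after SAH. SAH 3 was the lowest and SAH 4 the highest of all 10 mice, with every control between 45.8 and 63.8. Its log2 change was 0.063 (SE 0.161, adjusted p = 0.871), -0.16 without SAH 4, and 0.18 without SAH 3 and Sham 5.

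**Figure D2:**
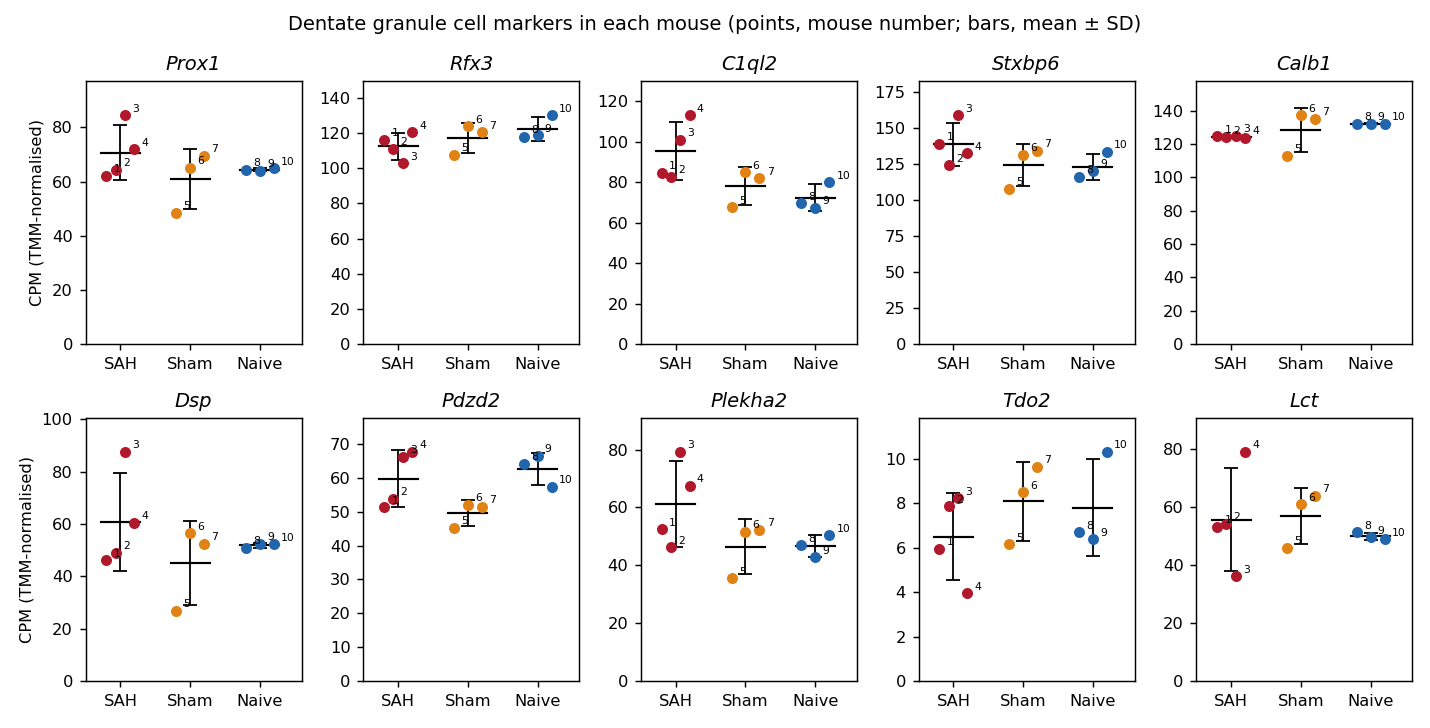
CPM of each gene (y axes from 0) in the SAH, Sham and Naive mice; points are single mice labelled by number, lines are group means and bars the SD. SAH 3 and SAH 4 are the upper SAH points for C1ql2, Plekha2, Dsp and Prox1, and Sham 5 is the lowest Sham point in all 10 panels.

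By mouse, the median over the 10 genes of log2 CPM, each taken as its difference from the mean of the 6 control mice, was -0.018 and 0.012 in SAH 1 and SAH 2, and 0.31 and 0.24 in SAH 3 and SAH 4. It was -0.25 in Sham 5, 0.11 in Sham 6, 0.14 in Sham 7, and 0.0019, -0.024 and 0.10 in Naive 8 to 10. SAH 3 was the highest mouse for Prox1, Dsp, Stxbp6 and Plekha2 and the lowest for Rfx3 and Lct. SAH 4 was the highest for C1ql2, Pdzd2 and Lct and the lowest for Tdo2. Sham 5 was the lowest control in 9 of 10 markers, where it was the lowest control for 17.5% of all genes. Sham 5 was also the lowest of 10 mice for 5 of 11 further granule cell genes, 5 of 10 CA2 and CA3 genes and 3 of 6 CA1 genes.

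**Figure D3:**
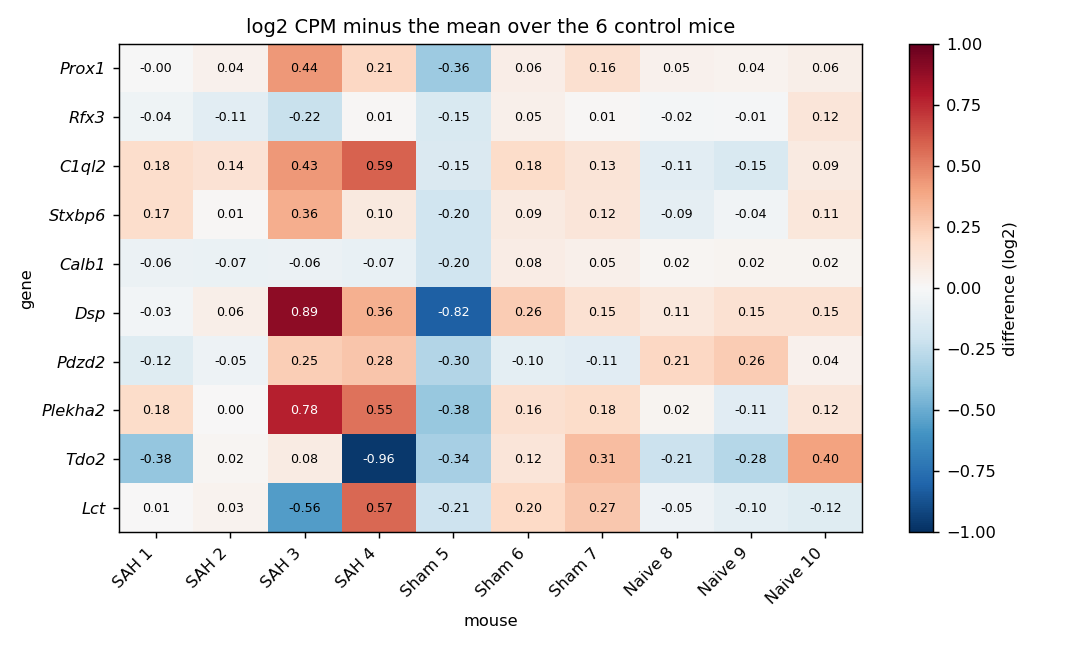
Difference of log2 CPM from the mean of the 6 control mice for each gene (rows) in each mouse (columns), in red above and blue below. Sham 5 is negative in all 10 rows, while SAH 3 ranges from -0.56 for Lct to 0.89 for Dsp.

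SAH was then set against each control group alone, in 1 fit with 3 groups and 15134 tested genes. These comparisons share the SAH mice. Against Sham, no marker passed in edgeR (0.72% of all genes did) or in DESeq2 (1.89%), and in no marker did the groups separate without overlap (9.48% of all genes did). The log2 change of C1ql2 was 0.29 (SE 0.112, adjusted p = 0.424), of Plekha2 0.40 (SE 0.172, adjusted p = 0.478) and of Pdzd2 0.27 (SE 0.0999, adjusted p = 0.395), and these 3 had an unadjusted p under 0.05, as did 9.69% of all genes. Without SAH 3 and Sham 5 these changes were 0.16 for C1ql2, 0.091 for Plekha2 and 0.15 for Pdzd2, and without Sham 5 alone 0.19, 0.24 and 0.21. The median of the 10 markers against Sham was 0.18, and -0.019 without SAH 3 and Sham 5. Against Naive, no marker passed in edgeR (2.99% of all genes did), and DESeq2 called C1ql2 (adjusted p = 0.0258), where it called 4.55% of all genes. C1ql2 was higher in 4 of 4 SAH mice than in any Naive mouse, with a log2 difference of 0.40 (SE 0.113, adjusted p = 0.114, edgeR). Calb1 was lower in 4 of 4 SAH mice than in any Naive mouse, 124 to 125 against 132 CPM, with a log2 difference of -0.09 (SE 0.0594, adjusted p = 0.514). Those 2 of 10 genes stand beside 13.8% of all genes that separated SAH from Naive mice, 7.04% with SAH higher and 6.75% with SAH lower. An unadjusted p under 0.05 was found for 2 of the 10 (C1ql2 and Plekha2) against 14.8% of all genes.

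Sham and Naive mice were compared to see what the surgery without bleeding did to the markers. No marker passed in edgeR or DESeq2, where 0.00661% of all genes did in edgeR and 0.0102% in DESeq2. Pdzd2 was the one marker that separated the groups, where 8.99% of all genes did. It read 45.3, 52.0 and 51.5 CPM in Sham mice and 64.2, 66.5 and 57.4 in Naive mice, a log2 difference of -0.34 (SE 0.106, unadjusted p = 0.00774, adjusted p = 1.00 in edgeR's quasi-likelihood test). The SAH mice of Pdzd2 covered both levels, SAH 1 and 2 near the Sham mice and SAH 3 and 4 near the Naive mice. It was also the 1 marker with an unadjusted p under 0.05, as 2.02% of all genes had. The other 9 genes had log2 differences from -0.19 (Dsp) to 0.19 (Lct).

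**Figure D4:**
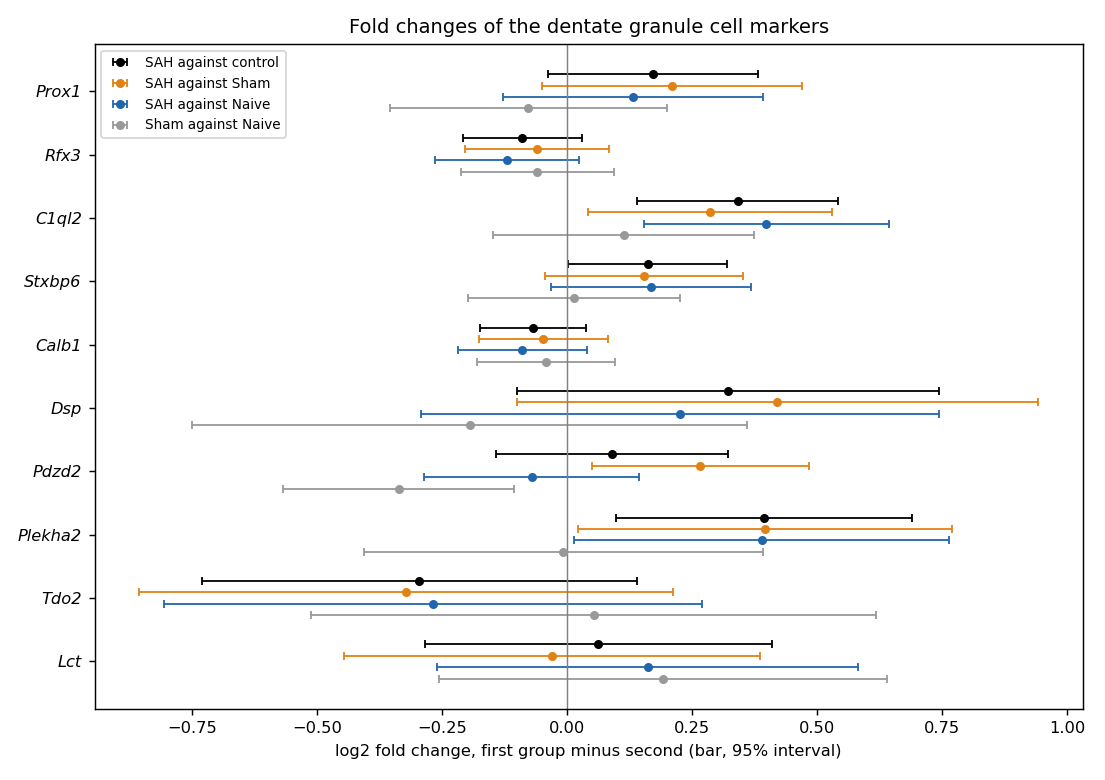
Log2 fold change of each gene in 4 comparisons, first group minus second, with bars for the 95% interval. C1ql2 and Plekha2 lie above 0 in all 3 comparisons of SAH, and Calb1 and Rfx3 have the narrowest intervals, all of which include 0.

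Other genes known from granule cells were read in the same way, from a list of 11 (Trpc6, Maml2, Dock10, Glis3, Npnt, Igfbp5, Ahcyl2, Lrrtm4, Sema5a, Gabrd and Pdyn). None passed in SAH against control in edgeR or DESeq2 and 0 had an unadjusted p under 0.05, with 10 log2 changes above 0 and 1 below, a median of 0.061 and a range from -0.06 (Npnt) to 0.31 (Maml2). The direction depended on a few mice. Without SAH 3 the median was 0.024, with 5 of 11 below 0 and Trpc6 called higher in edgeR. It was -0.016 without SAH 3 and Sham 5 (7 below 0) and -0.039 without SAH 3 and SAH 4 (6 below 0). Immature granule neuron genes, again over all 10 mice, were lower after SAH. All 7 were below 0, with a median of -0.48, and 3 passed: Dcx, a microtubule protein of migrating neuroblasts (log2 change -0.40, adjusted p = 0.0521, edgeR), the transcription factor Sox11 (-0.48, adjusted p = 0.00961) and Draxin, an axon guidance gene (-0.64, adjusted p = 0.058). SAH 3 and SAH 4, which were also the highest SAH mice in choroid plexus genes, held the lowest value of all 10 mice for 2 and 5 of the 7. The median over the 7 genes of the difference from the control mean was -0.18, -0.23, -0.77 and -0.66 in SAH 1 to 4 and -0.18 in Sham 5. Without both SAH 3 and SAH 4, chosen after seeing the data, all 7 were still below 0, with a median log2 change of -0.34, and 1 (Sox11) passed, as also without either mouse alone. Against Sham alone none of the 7 passed (adjusted p = 0.361 for Dcx, 0.113 for Sox11 and 0.284 for Draxin, edgeR; 4 with an unadjusted p under 0.05), and against Naive 2 did. All 7 were also below 0 in Sham against Naive, with a median of -0.11 and none called. Their summed level was 88.0 to 124 CPM after SAH, 125 to 133 in Sham mice and 142 to 151 in Naive mice. Some of the 7 were low: Draxin read 1.36 to 3.01 CPM over the 10 mice, and Eomes 0.44 to 2.41 CPM. Mossy cell genes, at the target of the granule cells, had 0 of 3 called in edgeR and DESeq2 (1 with an unadjusted p under 0.05) with a median of 0.049. That 1 gene, Drd2, was below 0 (log2 change -0.40). All 3 were low, from 1.48 to 3.61 CPM over the mice, so these values say little about mossy cells. Of the pyramidal genes, CA1 had 1 of 6 called (Ndst4, a sulfotransferase, log2 change 0.31, adjusted p = 0.0318 in edgeR, but 0.201 against Sham and 0.114 against Naive) and CA2 and CA3 had 0 of 10 (3 with an unadjusted p under 0.05, and 1, Pcp4, called by DESeq2), with medians of 0.055 and 0.088. The call of Ndst4 held without SAH 3, and was lost without SAH 4 and without both. Whether the granule markers differed from the pyramidal lists was not tested.

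**Figure D5:**
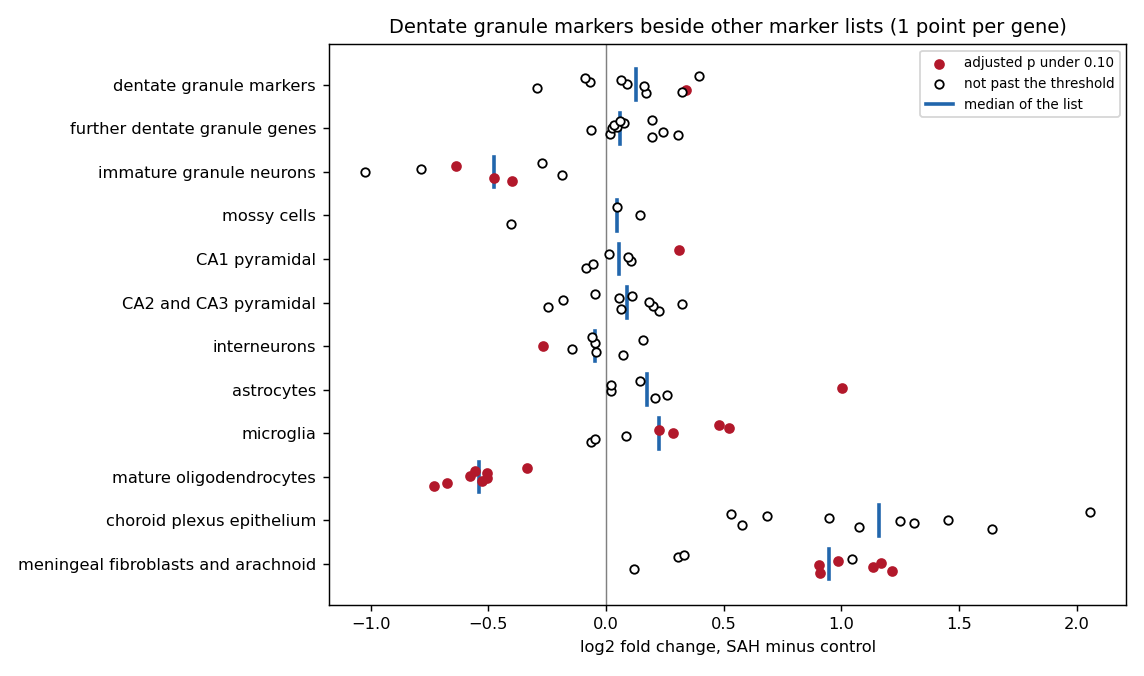
Log2 fold change, SAH minus control, for each gene of 12 marker lists; filled points passed the threshold, open points did not, and blue lines are list medians. Of the granule markers (median 0.13), 7 lie right of 0 and 3 left of it with 1 filled point, and all 7 immature granule genes (median -0.48) lie left of 0 with 3 filled.

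Markers of other cells also moved in SAH against control (edgeR). All 8 mature oligodendrocyte genes fell, with a summed level of 2655 to 3395 CPM after SAH against 3863 to 5233 in Sham and 4481 to 4828 in Naive mice. Of the meningeal genes 6 of 10 rose (112 to 187 CPM against 98.2 to 133 and 96.8 to 104), of the microglial genes 4 of 7 (451 to 562 against 429 to 463 and 407 to 437), and of the endothelial genes 2 of 6 (153 to 255 against 132 to 149 and 138 to 176). Gfap, the filament of reactive astrocytes, rose by 1.00 on the log2 scale and was the only one of 6 astrocyte genes to pass in edgeR, where DESeq2 also called Aldh1l1. Among 7 interneuron genes Sst fell by 0.27 (adjusted p = 0.0333 in edgeR, but 0.258 against Sham). Against Sham alone edgeR called fewer of these genes: 6 of 8 oligodendrocyte, 2 of 10 meningeal, 0 of 7 microglial and 0 of 6 endothelial genes, with 4 microglial and 5 endothelial genes at an unadjusted p under 0.05. Without SAH 3 and SAH 4, edgeR called 7 of 8 oligodendrocyte, 6 of 10 meningeal, 1 of 7 microglial and 1 of 6 endothelial genes against control. None of the genes of these lists was at 0 in any mouse. Their part in the values of the granule markers was not tested.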

How the data were processed

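RNA of the whole bilateral hippocampus was sequenced from 10 mice. The authors made stranded, ribosomal RNA-depleted libraries, aligned the reads with STAR to mm9 and counted uniquely mapped fragments per gene with featureCounts 1.6.2 (reverse-stranded, by gene name), and deposited raw counts per gene. GRCh38 is also named among the builds in the submitters' processing notes, with no role given. The exons of no marker overlapped those of another gene, and no column of another sample was used.

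From these counts, edgeR 4.0.16 (R 4.3.3) was run with TMM normalization, a low-count filter (filterByExpr, minimum count 10, minimum total 15), its quasi-likelihood test and p-values adjusted over all tested genes by the Benjamini-Hochberg method. The threshold was an adjusted p under 0.10, which the study used. SAH was compared with pooled control mice in a 2-group fit, and the 3 groups in a 3-group fit. DESeq2 1.42.0 (the tool of the study) and other settings were alternatives. CPM are TMM-normalized, and log2 CPM have a prior count of 2. Intervals are at 95%. Levels per kilobase used the exon bases in the files. The code was tested on simulated data. The p-values measure the spread between single mice.

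The 10 markers, the other gene lists and the tests were chosen with earlier results of these data known. All 10 markers were tested in every comparison, and each is named with its values in SAH against control. From each other list, called genes and the 2 tested genes with the largest change could be named, and any gene of the further granule, CA1, and CA2 and CA3 lists. The 5 genes most like the markers were found by the root mean square difference over mice between a gene's z-scored log2 CPM and the markers' mean z. Promoters came from RefSeq (GRCm38.p6), a build other than that of the counts, and were used for sequence alone. In SAH against control, lists of ependymal, thalamic and cortical or striatal genes had 0 of 6, 0 of 4 and 0 of 4 tested genes called in edgeR and DESeq2, with 1, 0 and 2 at an unadjusted p under 0.05, 5, 3 and 4 log2 changes below 0, and medians of -0.25, -0.14 and -0.25. The cortical or striatal genes were lowest in SAH 3 (median -0.57 from the control mean).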

Additional observations from a re-analysis of the deposited data

Results flagged for a closer look

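In 3 of 20 groups of 4 or 6 mice, 1 mouse lay far from the others relative to the range of its group, which chance gives in about 1 of 20 groups. All 3 concerned Sham 5 among the 6 control mice. Its Prox1 level was 48.5 CPM where the other 5 control mice lay between 64.0 and 69.5. Its Dsp level was 26.7 CPM, where the others lay between 50.8 and 56.4. Its Calb1 level was 113 CPM, where the others lay between 132 and 137.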

How the results depend on the processing

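In SAH against control, 1 marker was called. DESeq2 called 2 (C1ql2 and Plekha2), an adjusted p under 0.05 called 0, and leaving out 1 mouse gave 0 to 2, with 2 without SAH 2. A pair of alternatives chosen after seeing the data, without SAH 3 and Sham 5 and without the 3 mice high in choroid plexus genes, each called 0. Both leave out SAH 3, the mouse with the highest marker median, which lowers the SAH values by construction. The former turned Dsp to -0.027 and Pdzd2 to -0.015 (log2), the latter Pdzd2 to -0.11. The number of called genes over all genes, 701, was 1034 with DESeq2, 369 under the stricter threshold, 330 without the 3 mice and 308 to 1093 with 1 mouse left out. In SAH against Naive, DESeq2 and the fit with no filter each called 1 marker (C1ql2), and leaving out 1 mouse gave 0 to 1. SAH against Sham and Sham against Naive had 0 under every setting run. Over all genes, 109 were called against Sham (49 under the stricter threshold, 12 in a fit of those groups alone, 182 with no filter, 299 with DESeq2, 6 to 215 with 1 mouse left out) and 453 against Naive (in the same order 260, 282, 517, 736 and 109 to 683). DESeq2 called Pcp4 in the CA2 and CA3 list (1 gene) and Gfap and Aldh1l1 among astrocyte genes (2 genes). Without SAH 3 and Sham 5, SAH against Sham turned for Prox1 (-0.025), Dsp (-0.070) and Stxbp6 (-0.012). With 1 mouse left out, signs turned for Lct in SAH against control (-0.16 to 0.22), Sham (-0.25 to 0.13) and Naive (-0.056 to 0.32) and for Calb1 against Sham (-0.13 to 0.0026). In Sham against Naive they turned for Prox1 (-0.18 to 0.064), Dsp (-0.39 to 0.073), Tdo2 (-0.090 to 0.31), Stxbp6 (-0.044 to 0.11), Calb1 (-0.093 to 0.042) and Plekha2 (-0.10 to 0.15, and 0.0019 with library size alone). The cause of these changes was not tested. No paired analysis was possible because the groups share no replicate numbers. The counting error of Tdo2 was 7.79% over the 10 mice against a spread of 25.9%, and that of Calb1 1.82% against 5.62%.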

Other observations

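The genes whose pattern over the 10 mice was most like the mean of the 10 markers were Kctd4, Usp50, Sema5a, Epha7 and Bcl11b. The root mean square difference of their z-scored log2 CPM from that mean was 0.447, 0.463, 0.464, 0.473 and 0.479. Among the markers themselves, each of which is part of that mean, it ran from 0.473 for Dsp to 1.01 for Tdo2. The mean z of the markers was 0.63 in SAH 3, 0.55 in SAH 4 and -1.51 in Sham 5, and lay between -0.23 and 0.36 in the other 7 mice. Sema5a, a semaphorin of axon guidance, is on the list of further granule cell genes. Epha7 encodes an ephrin receptor and Bcl11b a transcription factor of cortical and granule neurons. None of the 5 passed in SAH against control, with log2 changes from 0.06 for Kctd4 to 0.43 for Usp50. Usp50 had a mean of 1.25 CPM after SAH and 0.922 CPM in control mice, the lowest level of the 5.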
